A study of Caenorhabditis elegans with 16 samples.

Results

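The 6 genes *cpt-1* to *cpt-6* of *Caenorhabditis elegans* encode the carnitine palmitoyltransferases, the enzymes that pass long-chain fatty acids to and from carnitine. They were taken by name from the deposited gene table, where they are 6 of 21982 genes. No measured value was a criterion, although earlier results of these data were known when they were chosen. Messenger RNA had been sequenced from 16 libraries of whole adult animals, in 4 groups of 4. The first group was wild type (N2 Bristol) on bacteria with an empty RNA interference vector, fed without limit, and the second was the same strain on the same bacteria but without food. The other 2 groups carried a null mutation in *jmjd-3.1*, the gene of a histone H3 lysine 27 demethylase, and grew on bacteria directed against *cbp-1*, the gene of a histone acetyltransferase. One of these was fed and the other fasted. The titles name the *jmjd-3.1* allele gk384 and the genotype field names gk387, so the allele is uncertain. The submitters call these animals H3K27ac-deficient (low in acetylation of lysine 27 of histone H3), written H3K27ac(-), and their libraries are called H3K27ac(-)-labelled below. Feeding or fasting lasted 24 h, from adult day 1 to adult day 2, and each library came from about 1000 animals. No group had the mutation without the RNA interference or the reverse, so the 2 cannot be told apart.

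Fatty acids are burned mainly inside mitochondria, and long-chain acyl-CoA cannot cross the inner mitochondrial membrane. In mammals, CPT1 in the outer membrane moves the acyl chain from coenzyme A to carnitine, a translocase carries the acylcarnitine across, and CPT2 on the inner membrane moves the chain back to coenzyme A. The CPT1 step is the one that malonyl-CoA, an intermediate of fatty acid synthesis, inhibits, so it is a control point between making and burning fat. The worm has a gene for the CPT2-type enzyme, *cpt-2*, while *cpt-1* is the best known of its CPT1-type genes. *cpt-3*, *cpt-4*, *cpt-5* and *cpt-6* are further members of the family, whose separate tasks are less well known.

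The 6 genes lie apart on 4 chromosomes, except that 3 share chromosome V. In the WBcel235 annotation of Ensembl, *cpt-1* (WBGene00012907) lies at chrII:12788244-12796452 on the minus strand and *cpt-2* (WBGene00011122) at chrIV:11179645-11183008 on the plus strand. *cpt-3* (WBGene00021703) lies at chrIII:2082819-2088314 on the plus strand. On chromosome V, *cpt-4* (WBGene00019644) is at chrV:5023706-5027723 on the minus strand, *cpt-6* (WBGene00020911) at chrV:6490086-6493921 on the minus strand and *cpt-5* (WBGene00008629) at chrV:13873195-13875888 on the plus strand. The longest annotated coding sequences hold 779 codons in *cpt-1*, 646 in *cpt-2*, 722 in *cpt-3*, 748 in *cpt-4*, 735 in *cpt-5* and 746 in *cpt-6*. *cpt-2* is the shortest of the 6. No other annotated gene overlapped these loci except a small RNA gene, 21ur-14753, inside *cpt-6*. How alike the 6 sequences are, and so how many reads could fit more than one of them, was not analysed here.

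Read totals were 16.45 to 27.79 M per library, and every member passed the filter on low counts. The targeted genes did not fall with their labels. *cbp-1* was higher in the H3K27ac(-)-labelled libraries by 1.02 (log2, SE 0.14, edgeR adjusted p = 1.90e-06) when fed and by 0.89 (SE 0.14, adjusted p = 1.01e-05) when fasted. *jmjd-3.1* was higher by 0.50 (SE 0.12, adjusted p = 0.00158) when fed and differed by 0.12 (SE 0.12, adjusted p = 0.387) when fasted. Neither was lower in RNA, so directions below are given for the libraries as labelled. All listed markers of intestine, body muscle, neurons, hypodermis, germline, oocytes, sperm and embryos had reads. Their summed levels moved with the groups. The 7 intestine markers together ranged from 809 to 1010 CPM (counts per 1000000 reads, scaled by TMM) in fed and 254 to 289 CPM in fasted wild type, and from 377 to 419 CPM and 298 to 317 CPM with the H3K27ac(-) label. The 5 hypodermis markers went from 1410 to 2637 CPM in fed wild type to 206 to 239 in fasted wild type, and from 503 to 741 to 75.0 to 84.2 in the H3K27ac(-)-labelled libraries. Every fasted wild-type library was thus below every fed one in both lists, and the H3K27ac(-)-labelled libraries were below fed wild type. The 6 germline markers were at 641 to 944 and 526 to 665 CPM in the fed and fasted wild type, against 1069 to 1577 and 1164 to 1460 in fed and fasted H3K27ac(-)-labelled libraries. The 6 embryo markers were at 40.8 to 77.96, 181 to 224, 65.0 to 99.4 and 125 to 152 CPM in the same order. Germline markers were higher with the H3K27ac(-) label, and embryo markers were higher after fasting. The 5 body muscle markers were at 1112 to 1578, 833 to 1002, 914 to 1274 and 573 to 655 CPM, the 6 neuron markers at 313 to 376, 330 to 363, 311 to 384 and 355 to 400 CPM. The 5 oocyte markers were at 1147 to 1845, 691 to 815, 1367 to 2346 and 1395 to 2009 CPM, and the 5 sperm markers at 0.76 to 1.95, 2.72 to 4.09, 2.22 to 2.83 and 2.50 to 3.30 CPM. The part of these shifts in the results below was not tested, and in whole animals fewer cells of a type and less RNA per cell cannot be told apart.

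*cpt-1* was the most abundant member per transcript length in all 4 groups, and *cpt-3* changed its place in the family more than any other member. On the TPM scale (transcripts per 1000000, which corrects for length) *cpt-1* had wild-type means of 31.2 ± 4.22 fed and 62.4 ± 3.20 fasted, and means of 47.4 ± 9.42 fed and 65.6 ± 6.35 fasted with the H3K27ac(-) label (SD, n = 4). *cpt-2* followed at 23.6 ± 3.12 TPM in fed wild type, where its libraries overlapped those of *cpt-1*. Then came *cpt-6* at 9.92 ± 0.843, *cpt-5* at 4.10 ± 0.566, *cpt-3* at 1.98 ± 0.396 and *cpt-4* at 0.303 ± 0.0341 TPM, each with all 4 libraries below those of the gene before it. In fasted wild type the order was *cpt-1*, *cpt-3*, *cpt-2*, *cpt-6*, *cpt-4* and *cpt-5*. There *cpt-3* reached 32.5 ± 3.01 TPM and overlapped *cpt-2* at 29.0 ± 1.43 TPM, and *cpt-4* at 3.13 ± 0.341 TPM overlapped *cpt-5* at 2.53 ± 0.328 TPM. In both H3K27ac(-)-labelled groups *cpt-1*, *cpt-2* and *cpt-6* stood apart in that order, and *cpt-3*, *cpt-4* and *cpt-5* lay close together. When fed these 3 had 1.02 ± 0.122, 1.06 ± 0.0654 and 1.17 ± 0.0629 TPM, and when fasted 1.75 ± 0.573, 1.02 ± 0.168 and 1.07 ± 0.265 TPM, with overlapping libraries between neighbours in the order.

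**Figure D1:**
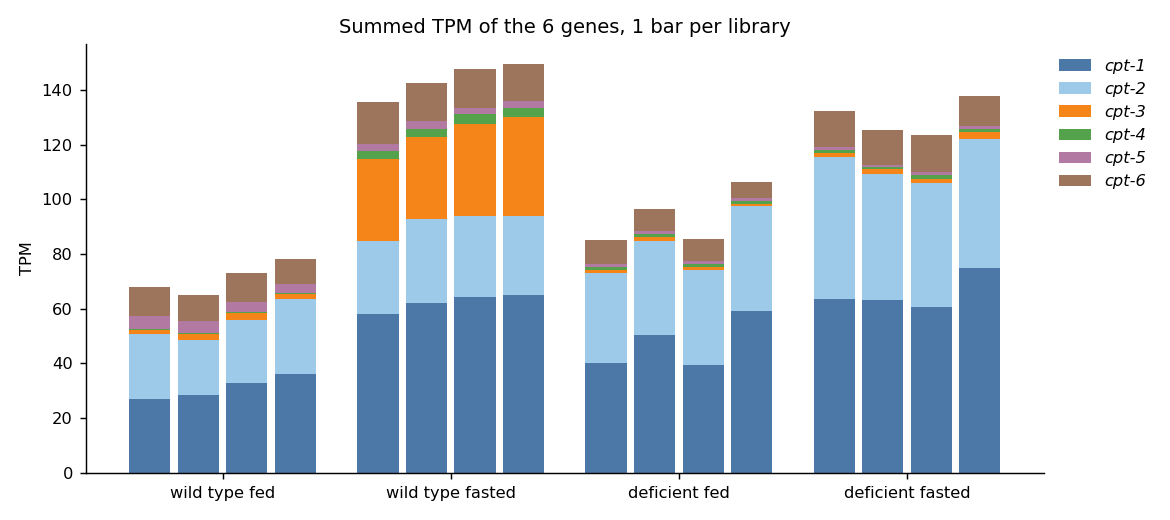
Summed TPM of the 6 genes, with 1 bar per library and 1 colour per gene, libraries grouped by genotype and feeding. The *cpt-3* segment is thin in fed wild type and in all H3K27ac(-)-labelled libraries and makes up 21.2% to 24.2% of the bar in fasted wild type.

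Summed over the family, the level was 71.1 ± 5.74 TPM in fed and 143.8 ± 6.26 TPM in fasted wild type, and 93.3 ± 10.2 and 129.7 ± 6.47 TPM in fed and fasted H3K27ac(-)-labelled libraries (SD, n = 4). The make-up of that sum differed as well. *cpt-3* gave 2.80 ± 0.619% of it in fed wild type and 22.6 ± 1.29% in fasted wild type, against 1.11 ± 0.195% and 1.34 ± 0.382% in the H3K27ac(-)-labelled groups. *cpt-1* kept a share of 43.8 ± 2.95% and 43.4 ± 0.413% in fed and fasted wild type and 50.4 ± 4.48% and 50.5 ± 2.83% in the H3K27ac(-)-labelled groups. The share of *cpt-2* was 33.1 ± 2.43% in fed and 20.2 ± 0.808% in fasted wild type. In the H3K27ac(-)-labelled groups it was 37.8 ± 2.45% and 36.8 ± 2.11%. TPM is a share of all transcripts in a library, so these values were not tested, and the tests below use read counts scaled between libraries.

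**Figure D2:**
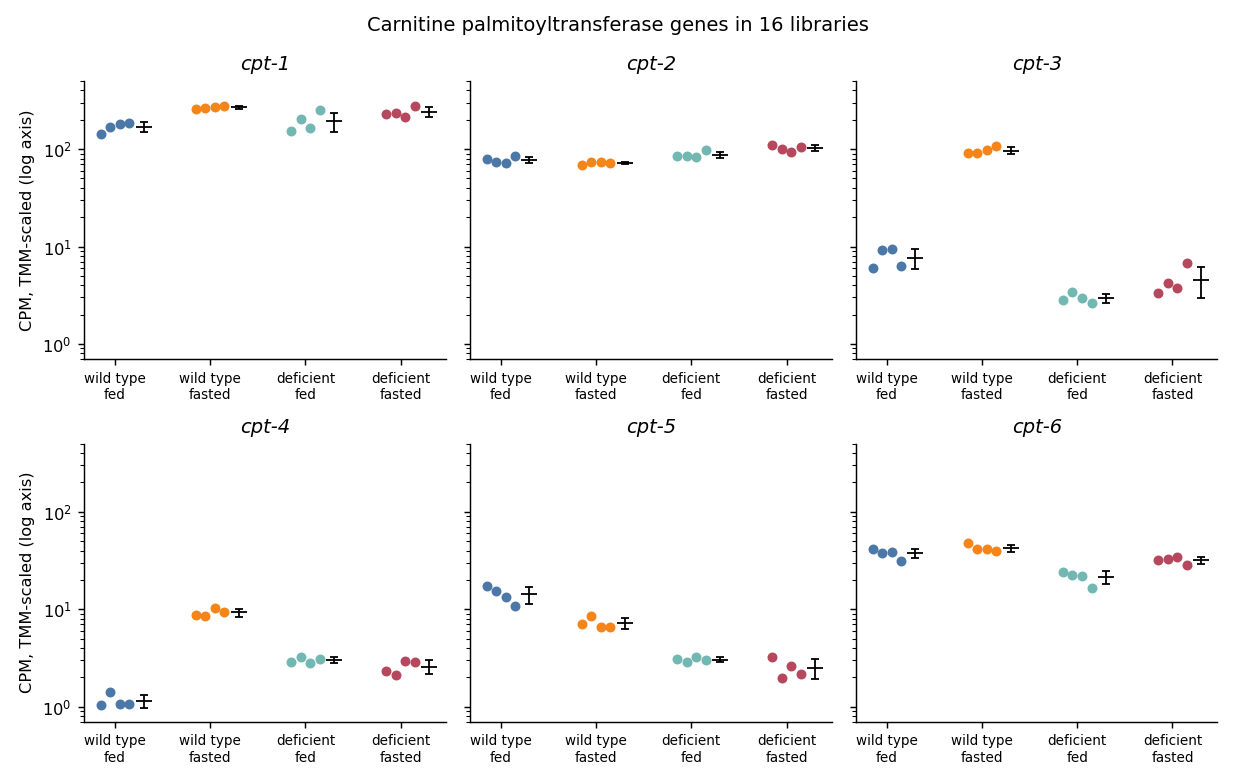
CPM of each gene on a log axis, with 1 point per library in replicate order and the group mean ± SD (n = 4) as the bar beside the points. *cpt-3* and *cpt-4* have their highest points in fasted wild type, *cpt-5* in fed wild type, and *cpt-2* stays within 69.2 to 109 CPM.

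After fasting of wild-type animals *cpt-3* and *cpt-4* were far higher, *cpt-1* was moderately higher and *cpt-5* was lower. *cpt-2* and *cpt-6* did not pass the test. Thus 3 of the 6 members rose, where 30.4% of the 15840 genes tested rose, and 1 fell, where 30.6% fell (edgeR quasi-likelihood test, Benjamini-Hochberg adjusted p under 0.05). With so many of all genes called, the count says little about the members, and their sizes are set against those of all genes below. The median log2 change was 0.42 over the members and 0.01 over all genes tested.

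*cpt-3*, an enzyme of the family without an established separate task, had 6.05, 9.12, 9.42 and 6.27 CPM in the fed and 91.3, 90.3, 97.3 and 107.3 CPM in the fasted wild-type libraries. Every fasted library was far above every fed one, on 107 to 143 reads per fed and 1740 to 2275 reads per fasted library. The rise was 12.6-fold, or 3.65 in log2 units (SE 0.18, edgeR adjusted p = 8.93e-14). A rise at least as large was seen in 83 of 15840 genes, *cpt-3* among them, or 0.524%.

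*cpt-4*, the scarcest member in fed wild type, had 1.04, 1.402, 1.08 and 1.05 CPM in the fed and 8.81, 8.44, 10.4 and 9.39 CPM in the fasted wild-type libraries. The groups did not overlap, although the fed values rest on 16 to 22 reads per library. The rise was 8.10-fold, or 3.02 in log2 units (SE 0.17, edgeR adjusted p = 1.57e-12), and 162 genes (1.02%) rose as much or more.

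*cpt-1*, the CPT1-type gene and the most abundant member, had 142.7, 168.3, 180.6 and 187.4 CPM in the fed and 256.7, 266.6, 270.5 and 276.3 CPM in fasted wild-type libraries. All fasted libraries exceeded all fed ones, and they lay closer together. The rise was 0.66 (log2, SE 0.13, edgeR adjusted p = 0.000264), a size that 25.4% of all genes reached or exceeded.

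*cpt-5* moved the other way, from 17.3, 15.5, 13.3 and 10.8 CPM in fed to 6.98, 8.48, 6.64 and 6.51 CPM in fasted wild-type libraries. The lowest fed library was above the highest fasted one. *cpt-5* fell by 0.99 in log2 units (SE 0.16, edgeR adjusted p = 1.84e-05).

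*cpt-2*, the CPT2-type gene, had 79.4, 74.0, 72.8 and 85.5 CPM in the fed and 69.2, 74.2, 73.0 and 71.6 CPM in fasted wild-type libraries, which overlapped. Its change was -0.11 (log2, SE 0.09, edgeR adjusted p = 0.303), with an interval of 2 standard errors from -0.30 to 0.07. The sign depends on the scaling, since with library size alone the change was 0.23 and passed the test (edgeR adjusted p = 0.0346). *cpt-6* had 41.1, 38.1, 39.0 and 31.6 CPM in the fed and 47.4, 41.1, 41.7 and 39.6 CPM in fasted libraries. These also overlapped, with a change of 0.18 (log2, SE 0.12, edgeR adjusted p = 0.194, interval -0.06 to 0.42). With library size alone it was 0.52 and passed (edgeR adjusted p = 0.00238), and 3 of 10 other settings in all called *cpt-6*.

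In the H3K27ac(-)-labelled animals the large rises of *cpt-3* and *cpt-4* on fasting were not seen. Here 2 of the 6 members rose, *cpt-6* and by a small step *cpt-3*, where 19.6% of the 15840 genes rose, and 0 members fell, where 15.7% of genes fell. At an unadjusted p under 0.05, *cpt-1* and *cpt-2* were higher too and 0 members were lower, and DESeq2 and limma voom also gave 0 lower. The median change was 0.26 over the members and 0.11 over all genes tested (log2).

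*cpt-6* had 24.2, 22.5, 21.8 and 16.5 CPM in the fed and 32.2, 33.1, 34.2 and 28.3 CPM in fasted H3K27ac(-)-labelled libraries. The groups did not overlap, and the rise was 0.59 (log2, SE 0.12, edgeR adjusted p = 0.000626). *cpt-3* had 2.84, 3.401, 2.95 and 2.63 CPM in the fed and 3.30, 4.25, 3.77 and 6.85 CPM in fasted H3K27ac(-)-labelled libraries. The groups overlapped at their edge, and 1 fasted library, replicate 4, was higher than the other 3. The rise of *cpt-3* was 0.59 (log2, SE 0.20, edgeR adjusted p = 0.0255), and without fasted replicate 4 it was 0.33 and did not pass (adjusted p = 0.168). Its libraries held 52 to 95 reads when fed and 70 to 115 when fasted.

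*cpt-4* had 2.89, 3.26, 2.82 and 3.08 CPM in the fed and 2.34, 2.12, 2.96 and 2.86 CPM in fasted H3K27ac(-)-labelled libraries. The groups overlapped, with a change of -0.23 (log2, SE 0.16, edgeR adjusted p = 0.272, interval -0.56 to 0.09). *cpt-5* was low throughout, at 3.05, 2.90, 3.26 and 2.98 CPM in the fed and 3.26, 1.96, 2.59 and 2.15 CPM in fasted libraries. Its change was -0.27 (SE 0.19, adjusted p = 0.272, interval -0.65 to 0.10).

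*cpt-1* had 152.8, 206.2, 164.0 and 249.9 CPM in the fed and 227.6, 236.2, 215.3 and 279.6 CPM in fasted H3K27ac(-)-labelled libraries. The fed libraries were widely spread and overlapped the fasted ones, with a change of 0.31 (log2, SE 0.13, edgeR adjusted p = 0.0749). *cpt-2* had 84.0, 85.6, 83.8 and 97.3 CPM in the fed and 109.2, 99.6, 93.2 and 105.9 CPM in fasted libraries. Fed replicate 4 reached into the fasted range, and the change was 0.22 (SE 0.09, edgeR adjusted p = 0.0739). Without fed replicate 4 both genes passed, *cpt-1* with 0.46 (adjusted p = 0.00685) and *cpt-2* with 0.27 (adjusted p = 0.0354). Both also passed with library size alone, with 0.37 (adjusted p = 0.0126) and 0.27 (adjusted p = 0.0224). Of 10 other settings in all, 5 called *cpt-1* and 5 called *cpt-2*.

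**Figure D3:**
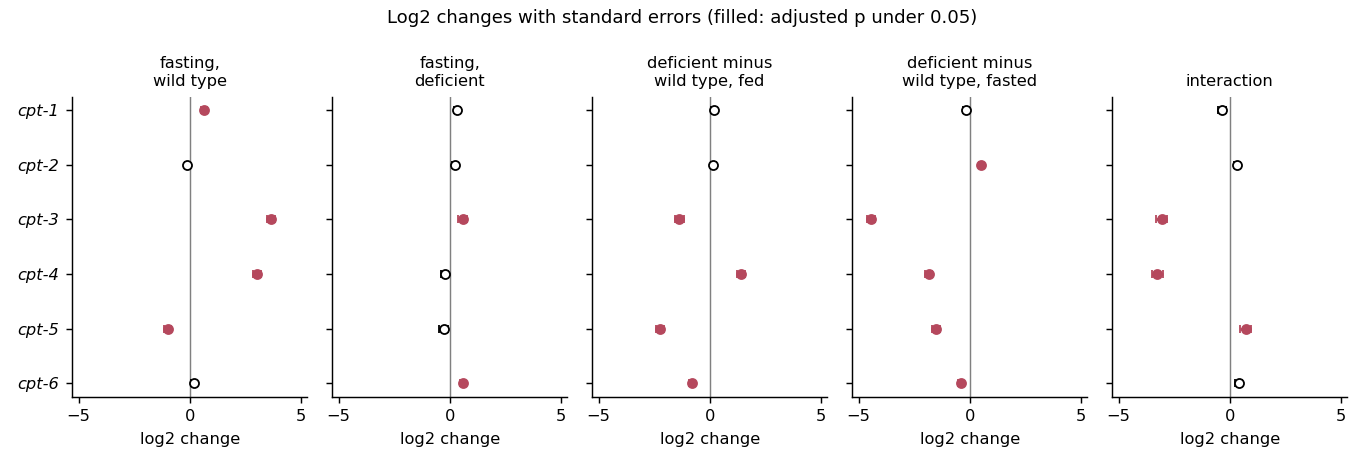
Log2 changes of the 6 genes in the 5 comparisons, with 1 standard error on each side and filled points for an edgeR adjusted p under 0.05. *cpt-3* has 3.65 in wild-type fasting, 0.59 in H3K27ac(-)-labelled fasting and -4.43 between the fasted genotypes.

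In fed animals the genotypes differed in 4 of the 6 members. *cpt-4* was higher in the H3K27ac(-)-labelled libraries, and *cpt-3*, *cpt-5* and *cpt-6* were lower. Thus 1 member was higher, where 24.6% of the 15840 genes were higher, and 3 were lower, where 31.7% were lower. The median difference was -0.32 over the members and -0.08 over all genes (log2).

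The *cpt-5* libraries listed above held 10.8 to 17.3 CPM in fed wild type and 2.90 to 3.26 CPM in the fed H3K27ac(-)-labelled group, so the groups stood wide apart. *cpt-5* was 4.67-fold lower in the H3K27ac(-)-labelled libraries, or -2.22 in log2 units (SE 0.17, edgeR adjusted p = 3.51e-10), a difference that 293 of 15840 genes reached. *cpt-4* was 2.64-fold higher, or 1.4 in log2 units (SE 0.18, adjusted p = 1.22e-06), with every H3K27ac(-)-labelled library above every wild-type one. *cpt-3* was lower, with a difference of -1.37 (log2, SE 0.19, adjusted p = 3.58e-06) and so was *cpt-6*, with -0.81 (SE 0.12, adjusted p = 6.33e-06), again without overlap between the groups. The 2 most abundant members overlapped between the genotypes. *cpt-1* differed by 0.19 (SE 0.13, adjusted p = 0.245, interval -0.08 to 0.46) and *cpt-2* by 0.17 (SE 0.09, adjusted p = 0.129, interval -0.02 to 0.36). Both passed with library size alone, with 0.47 (edgeR adjusted p = 0.00122) and 0.46 (edgeR adjusted p = 0.000204). Of 10 other settings in all, 2 called *cpt-1* and 4 called *cpt-2*, among them DESeq2 for *cpt-2* (0.21, adjusted p = 0.0447). In the 16 fits that each lacked 1 library, 0 called either gene.

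In fasted animals the genotypes differed in 5 of the 6 members, most of all in *cpt-3*. *cpt-3*, *cpt-4*, *cpt-5* and *cpt-6* were lower in the H3K27ac(-)-labelled libraries, 4 members where 29.3% of the 15840 genes were lower. *cpt-2* was higher, 1 member where 28.2% of genes were higher. The median difference was -0.96 over the members and -0.04 over all genes (log2). In these 5 the libraries of the groups did not overlap, but how many of all genes separate in this way was not counted.

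*cpt-3* ranged from 90.3 to 107.3 CPM in fasted wild type and from 3.30 to 6.85 CPM in the fasted H3K27ac(-)-labelled group. It was 21.5-fold lower, or -4.43 in log2 units (SE 0.19, edgeR adjusted p = 2.51e-14), and only 20 of 15840 genes, *cpt-3* included, were lower by as much (0.126%). *cpt-4* was lower, with a difference of -1.85 (log2, SE 0.15, adjusted p = 1.41e-09), the opposite direction to the fed animals. *cpt-5* was lower, with -1.502 (SE 0.18, adjusted p = 3.00e-07) and *cpt-6* also, with -0.41 (SE 0.12, adjusted p = 0.00543). The difference of *cpt-6* was smaller on the TPM scale, at -0.16 with an adjusted p of 0.225 in limma-trend. *cpt-2* was higher by 0.50 (SE 0.09, adjusted p = 9.12e-05). *cpt-1* overlapped between the groups and differed by -0.16 (SE 0.13, adjusted p = 0.326, interval -0.43 to 0.11), and with upper-quartile factors by -0.34 (adjusted p = 0.0130).

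The difference between the fasting changes, H3K27ac(-)-labelled minus wild type (the interaction), passed the test for *cpt-3*, *cpt-4* and *cpt-5*. It was negative for 2 members, where 11.4% of the 15840 genes were, and positive for 1, where 14.5% were. The 2 fasting changes share no library. *cpt-3* changed by 3.65 and 0.59, with an interaction of -3.06 (log2, SE 0.27, edgeR adjusted p = 2.15e-08). *cpt-4* changed by 3.02 and -0.23, with an interaction of -3.25 (SE 0.24, adjusted p = 1.84e-09). An interaction at least as negative was found for 62 genes in the case of *cpt-3* and 51 in the case of *cpt-4*, these genes included. *cpt-5* changed by -0.99 and -0.27, with a positive interaction of 0.72 (SE 0.25, adjusted p = 0.0362), which was lost with library size alone (0.43, adjusted p = 0.240) and was called in 7 of 16 fits that each lacked 1 library. With that scaling the interaction of *cpt-1* passed (-0.63, adjusted p = 0.00546). It was called in 4 of 9 other settings in all, and in 0 of 16 fits that each lacked 1 library. By TMM the interaction of *cpt-1* was -0.35 (SE 0.19, adjusted p = 0.179, interval -0.72 to 0.03). That of *cpt-2* was 0.33 (SE 0.13, adjusted p = 0.0686, interval 0.07 to 0.60), and that of *cpt-6* was 0.41 (SE 0.17, adjusted p = 0.0801, interval 0.07 to 0.74). With the replicate block these members passed too, as given below.

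Ratios within a library do not depend on scaling between libraries, so each member was also set against *cpt-2*, the CPT2-type gene. The measure was the log2 ratio of reads with 0.5 reads added to each gene, and 20 exact two-sided permutation tests were made, of which 15 passed. All 20 share *cpt-2* as the reference, and ratios of other genes to it were not tested, so the count of 15 says little about the members. With 4 against 4 libraries the smallest possible p is 0.0286, and the 15 that passed all had that p, or 0.0381 after Benjamini-Hochberg adjustment over the 20. *cpt-3* went from -3.36 ± 0.437 in fed to 0.42 ± 0.124 in fasted wild type (log2 ratio; SD, n = 4), so it exceeded *cpt-2* in reads only there. In the H3K27ac(-)-labelled groups its ratio was -4.88 ± 0.230 and -4.54 ± 0.452, and these overlapped (exact p = 0.229, adjusted p = 0.254).

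*cpt-4* relative to *cpt-2* went from -6.06 ± 0.273 to -2.96 ± 0.135 in wild type and from -4.85 ± 0.109 to -5.31 ± 0.279 in the H3K27ac(-)-labelled groups, where the difference did not pass (exact p = 0.0571, adjusted p = 0.0672). *cpt-5* fell against *cpt-2* on fasting in both genotypes, from -2.47 ± 0.358 to -3.33 ± 0.156 in wild type and from -4.84 ± 0.146 to -5.37 ± 0.303 in the H3K27ac(-)-labelled groups. In the latter case *cpt-5* by itself had not passed the test. *cpt-1* relative to *cpt-2* was 1.12 ± 0.197 and 1.89 ± 0.0423 in fed and fasted wild type and 1.11 ± 0.238 and 1.23 ± 0.140 in the H3K27ac(-)-labelled groups. Its ratio passed for wild-type fasting and between the fasted genotypes, where *cpt-2* was itself higher by 0.50 and *cpt-1* had not passed, and did not for H3K27ac(-)-labelled fasting (exact p = 0.429, adjusted p = 0.451) or between the fed genotypes (exact p = 1). *cpt-6* relative to *cpt-2* was -1.06 ± 0.251 and -0.77 ± 0.148 in wild type and -2.05 ± 0.341 and -1.67 ± 0.200 in the H3K27ac(-)-labelled groups. It passed in wild type, between the fed and between the fasted genotypes, but not for H3K27ac(-)-labelled fasting (exact p = 0.0571, adjusted p = 0.0672).

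**Figure D4:**
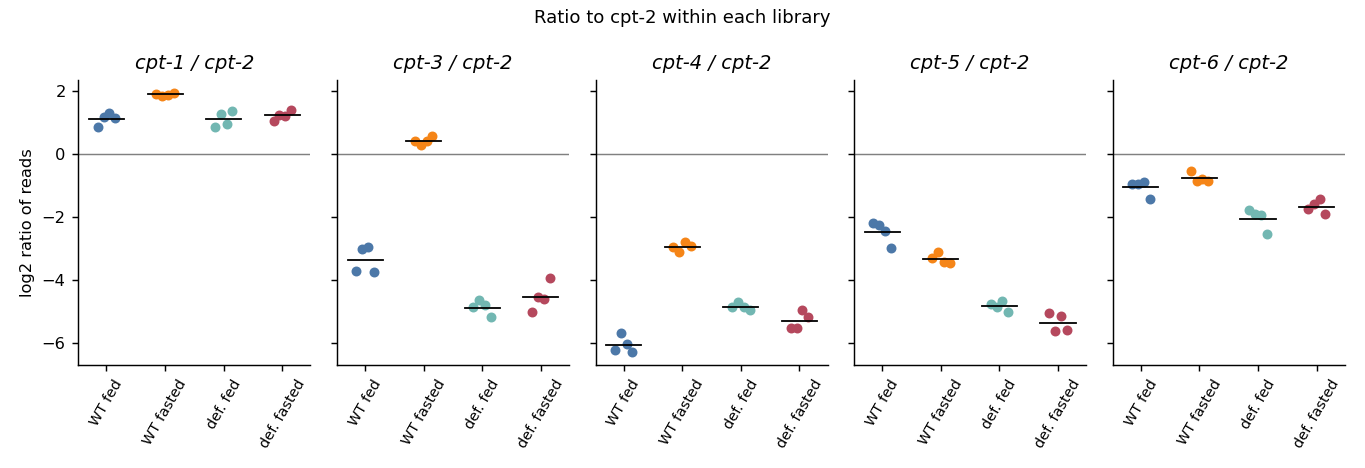
Log2 ratio of reads of each member to *cpt-2* within each library, with 1 point per library and a line at the group mean (n = 4). WT is wild type and def. is H3K27ac(-)-labelled. *cpt-3* lies above 0 in the 4 fasted wild-type libraries and below 0 in all others.

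Of the transcripts of the members, 9 were tested. On wild-type fasting 4 were higher, where 19.8% of the 22850 transcripts tested were, and 1 was lower, where 19.2% were. Between the fasted genotypes 1 was higher, where 17.7% were, and 3 were lower, where 20.3% were (edgeR, adjusted over all transcripts). *cpt-1*, *cpt-3* and *cpt-4* have 1 transcript each in the deposited files, and in these 2 comparisons it was called or not as the gene was. *cpt-2* has 3, and the split between them moved with fasting in wild type. Its transcript a held 75.2 ± 11.8% of the gene's TPM in fed and 47.5 ± 10.6% in fasted wild type, against 76.2 ± 10.2% and 63.5 ± 8.96% in the H3K27ac(-)-labelled groups (SD, n = 4). On wild-type fasting transcript a fell by 0.67 in log2 units (SE 0.18, edgeR adjusted p = 0.00880), although limma-trend on TPM gave -0.35 with an adjusted p of 0.119. Transcript c rose by 0.96 (SE 0.31, edgeR adjusted p = 0.0255), and limma-trend gave 1.01 with an adjusted p of 0.00231. Between the fasted genotypes transcript a was higher in the H3K27ac(-)-labelled libraries by 0.85 (SE 0.18, edgeR adjusted p = 0.00164). Transcript b had 0 reads in 1 fed library of each genotype and was not called in either comparison. No *cpt-2* transcript was called for the interaction, with 0.66 for a (SE 0.25, edgeR adjusted p = 0.111) and -0.93 for c (SE 0.44, edgeR adjusted p = 0.200). The 2 *cpt-5* transcripts exchanged all or nearly all reads between libraries of one group, with a share of F09F3.9.1 in the gene's TPM from 0% to 100% in fed wild type, so only their sum is used. All *cpt-6* reads were on 1 of its 2 transcripts. Some transcript models of the files differ from the annotation, where transcript c of *cpt-2* has 330 bases, against 2178 in the files.

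Other genes of the carnitine step were read from a list of 5. Of these, 3 rose and 1 fell on wild-type fasting, where 30.4% of all genes rose and 30.6% fell, and 1 rose and 0 fell in the H3K27ac(-)-labelled group (edgeR; also 0 at an unadjusted p under 0.05, with DESeq2 and with limma voom), where 19.6% of all genes rose and 15.7% fell. *gbh-2*, which with *gbh-1* encodes gamma-butyrobetaine hydroxylase of carnitine synthesis, had 29.8 ± 8.34 CPM in the fed and 102.0 ± 12.8 CPM in fasted wild type, against 27.4 ± 4.46 and 35.7 ± 2.66 CPM in the H3K27ac(-)-labelled groups. It rose by 1.78 (log2, SE 0.16, adjusted p = 4.31e-09) in wild type, with an interaction of -1.396 (SE 0.23, adjusted p = 9.06e-05). *gbh-1* rose by 0.42 (SE 0.12, adjusted p = 0.00601) in wild type. *dif-1*, the gene of the carnitine/acylcarnitine translocase, fell by 0.41 (SE 0.11, adjusted p = 0.00373) in wild type and had -0.01 (adjusted p = 0.936) in H3K27ac(-)-labelled fasting. T20B3.1, for which the sources used here give no role, rose from 4.98 ± 1.12 to 25.9 ± 1.24 CPM in wild type, by 2.39 (SE 0.16, adjusted p = 1.72e-11), with an interaction of -1.75 (SE 0.22, adjusted p = 5.34e-06). Between the fed genotypes 3 of the 5 were lower by edgeR (31.7% of all genes), but 2 with DESeq2. Between the fasted genotypes 4 were lower (29.3%). In either, 0 were higher, also at an unadjusted p under 0.05 and with DESeq2 and limma voom. B0395.3, also without a role in these sources, was among the lower genes by edgeR, at -0.81 (SE 0.11, adjusted p = 1.74e-06) and -0.76 (SE 0.11, adjusted p = 3.18e-06).

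Of the 3 genes around malonyl-CoA, *fasn-1*, the fatty acid synthase that uses it, fell by 1.97 on wild-type fasting (log2, SE 0.14, edgeR adjusted p = 4.81e-11) and by 0.76 in the H3K27ac(-)-labelled group (SE 0.13, adjusted p = 0.000126). *pod-2*, the acetyl-CoA carboxylase that makes it, rose by 0.57 (SE 0.14, adjusted p = 0.00117) and 0.87 (SE 0.14, adjusted p = 2.96e-05). *mlcd-1*, the malonyl-CoA decarboxylase, had -0.08 (adjusted p = 0.588) and 0.10 (adjusted p = 0.591). The synthase and the carboxylase thus moved in opposite directions in both genotypes.

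Acyl-CoA synthetases supply the acyl-CoA that CPT1-type enzymes use. Of 20 listed, 19 were tested, with 12 higher and 2 lower on wild-type fasting (edgeR; 30.4% and 30.6% of all genes). On H3K27ac(-)-labelled fasting 7 were higher and 3 lower (19.6% and 15.7% of all genes). Their median changes were 0.59 and 0.44 (log2), beside 0.01 and 0.11 over all genes tested. *acs-2*, a mitochondrial synthetase known as a fasting-response gene, went from 41.1 ± 4.20 to 1014 ± 75.4 CPM in wild type, and from 24.6 ± 2.79 to 603.6 ± 20.6 CPM in the H3K27ac(-)-labelled group. Its changes of 4.63 (SE 0.12, adjusted p = 3.04e-18) and 4.62 (SE 0.13, adjusted p = 8.15e-18) gave an interaction of -0.01 (SE 0.16, adjusted p = 0.974). The fasting change of *acs-2* thus passed in both genotypes with no called difference between them, whereas *cpt-3* and *cpt-4* had interactions of -3.06 and -3.25. Other synthetases did have called interactions. Of the 19 tested, 6 had a negative and 2 a positive one (edgeR, where 11.4% and 14.5% of all genes did). *acs-3* rose by 3.00 (SE 0.16, adjusted p = 4.40e-13) and 1.43 (SE 0.17, adjusted p = 5.86e-07), with an interaction of -1.57 (SE 0.24, adjusted p = 3.95e-05). *acs-1* fell by 2.96 (SE 0.10, adjusted p = 1.04e-16) and by 2.45 (SE 0.10, adjusted p = 8.27e-15), with an interaction of 0.51 (SE 0.13, adjusted p = 0.00820). Between the genotypes 5 synthetases were higher and 8 lower when fed (24.6% and 31.7% of all genes), and 3 higher and 12 lower when fasted (28.2% and 29.3%).

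**Figure D5:**
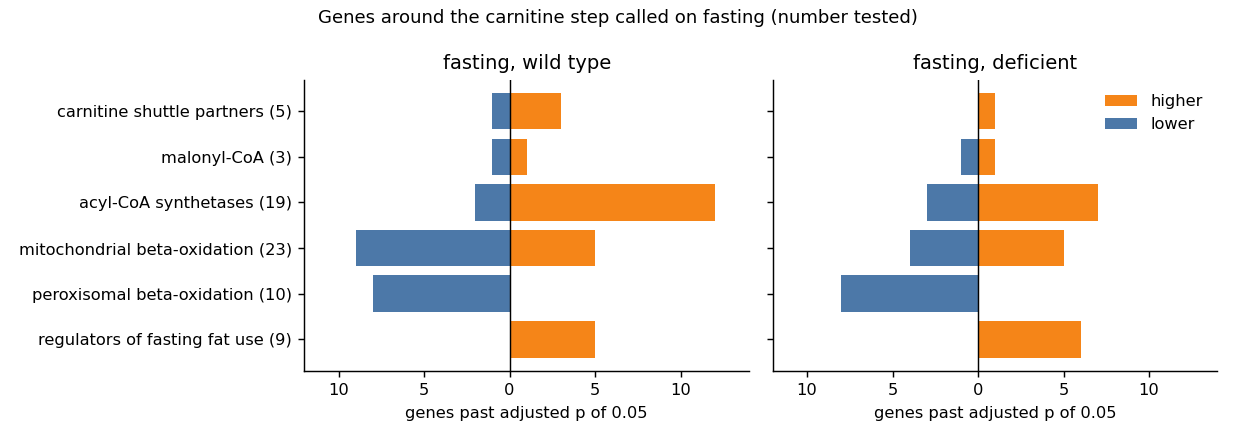
Number of genes past an edgeR adjusted p of 0.05 in each direction on fasting, for the 6 lists around the carnitine step, with the number tested in brackets, in wild type (left) and H3K27ac(-)-labelled animals (right). Synthetases had 12 higher and 2 lower genes in wild type, and the peroxisomal list had 8 lower genes in each genotype.

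Downstream of the carnitine step, the mitochondrial beta-oxidation list of 23 genes had 5 higher and 9 lower on wild-type fasting (edgeR; 30.4% and 30.6% of all genes). On H3K27ac(-)-labelled fasting 5 were higher and 4 lower (19.6% and 15.7% of all genes), but DESeq2 gave 1 higher and 7 lower. The medians were -0.06 and 0.11 (log2). *hacd-1*, a hydroxyacyl-CoA dehydrogenase, rose by 2.15 (SE 0.10, edgeR adjusted p = 1.92e-14) and 1.70 (SE 0.10, adjusted p = 2.57e-12). *acdh-1*, an acyl-CoA dehydrogenase of propionate breakdown, fell by 2.19 (SE 0.14, adjusted p = 1.49e-11) and by 4.11 (SE 0.16, adjusted p = 6.45e-15). Peroxisomal beta-oxidation, which shortens very long chains without the carnitine step at entry, had 0 of 10 genes higher and 8 lower in each genotype, where 30.4% and 30.6% of all genes were higher and lower in wild type and 19.6% and 15.7% with the H3K27ac(-) label. At an unadjusted p under 0.05, and with DESeq2 and limma voom, 0 were higher as well. Its medians were -0.80 and -0.53. The acyl-CoA oxidase *acox-1.2* fell by 2.19 (SE 0.14, adjusted p = 5.01e-12) in wild type and by 0.52 (SE 0.14, adjusted p = 0.00455) in the H3K27ac(-)-labelled group, and *acox-1.4* by 1.55 (SE 0.13, adjusted p = 1.14e-09) and by 2.01 (SE 0.17, adjusted p = 3.86e-09).

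Among 9 regulators of fat use, 5 rose and 0 fell in wild type, where 30.4% of all genes rose and 30.6% fell, and 6 rose and 0 fell in the H3K27ac(-)-labelled group (edgeR; 0 fell also at an unadjusted p under 0.05, with DESeq2 and with limma voom), where 19.6% rose and 15.7% fell. DESeq2 gave 4 higher in the latter. *nhr-49*, the nuclear receptor of the fasting response, rose by 0.25 (log2, SE 0.10, edgeR adjusted p = 0.0367) and 0.31 (SE 0.10, adjusted p = 0.0194). *aak-2*, a catalytic subunit of the AMP-activated kinase, rose by 0.68 (SE 0.11, adjusted p = 1.71e-05) and 0.38 (SE 0.11, adjusted p = 0.01003), and *sbp-1*, the SREBP homologue, by 0.48 (SE 0.12, adjusted p = 0.00139) and 0.71 (SE 0.12, adjusted p = 8.31e-05). Between the fed genotypes 2 regulators were higher and 5 lower (24.6% and 31.7% of all genes), and between the fasted genotypes 4 and 5 (28.2% and 29.3%).

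The genes whose log2 CPM followed each member most closely over the 16 libraries were found among 10096 genes with a mean of at least 5 CPM. Libraries of a group share treatment and genotype, so Pearson's correlation over them mostly reflects the 4 group levels and is given as a description. For *cpt-1* the closest was *daf-2*, the insulin/IGF-1 receptor gene, at 0.96, with group means of 48.9, 106.0, 54.8 and 85.1 CPM in the fed and fasted wild type and fed and fasted H3K27ac(-)-labelled libraries. *ceh-39* and *tbc-14* followed, at 0.95 and 0.94. For *cpt-2* they were *tag-250*, *cid-1* and *mon-2*, all at 0.98. For *cpt-3* the closest was *got-2.2*, a glutamate oxaloacetate transaminase gene, at 0.98, with 137.6, 371.2, 69.95 and 98.5 CPM in the same order, then *klo-1* and F43C11.7, both at 0.98.

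For *cpt-4* they were T20D4.10 at 0.96, T23E7.6 at 0.95 and F08H9.3 at 0.93. For *cpt-5* they were *pph-1* at 0.99 and C27A7.5 and *ceeh-1*, an epoxide hydrolase gene, both at 0.98. For *cpt-6* they were W02D7.4 at 0.96 and *del-5* and F07H5.5, both at 0.95. *cpt-4* was below 5 CPM and so no candidate, and none of the other members was among the 3 genes closest to another. By Spearman's correlation the closest gene was another for every member, namely T26C12.1 for *cpt-1*, *rme-8* tied with *ikke-1* for *cpt-2*, *ant-1.1* for *cpt-3*, F13E9.11 for *cpt-4* and *cdr-6* for *cpt-5*. For *cpt-6* these were *elo-6*, *pnk-1* and *fbxb-91*, which tied.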

How the data were processed

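Animals were kept at 20 °C, and their poly(A)-selected RNA was read as 150-base pairs, per the labels' protocols. FastQC 0.11.8, MultiQC 1.19, Salmon 1.9.0, R 4.3.2 and DESeq2 with the builds WBcel235 and ce11 are named in the submitters' processing notes, without their roles. The authors deposited a table of estimated counts, not all of them whole, for 21982 genes, and Salmon files with estimated counts, effective lengths and TPM for 35749 transcripts per library, per the file headers. Transcript sums equalled the gene table within 0.01 reads for 21976 of 21979 matched genes. Salmon divides reads that fit several transcripts by a model, so transcripts and genes with like sequence may exchange reads. Strand use is not given in the sources used here.

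Estimated counts were rounded. Genes kept by filterByExpr of edgeR 4.0.16 (15840) were scaled by TMM and fitted with one coefficient per group over all 16 libraries (quasi-likelihood, robust, R 4.3.3, common dispersion 0.0208). TMM factors were 0.789 to 0.890 in fed wild type and 0.962 to 1.11 elsewhere. P-values were two-sided and adjusted by Benjamini and Hochberg over all genes within each of 5 comparisons, with a threshold of 0.05. A standard error is the absolute log2 change over the root of F, and intervals are 2 standard errors to each side. Gene TPM is the sum over its transcripts. Alternatives were DESeq2 1.42.0, limma 3.58.1 (voom, and trend on log2(TPM + 1)), other scalings and filters, a replicate block and each library left out. The functions were tested on simulated data. The labels state independent experiments, and libraries of a group differed beyond sampling noise (chi-square per degree of freedom 5.75 to 85.1).

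Named genes were all members, the 3 genes most like each member, up to 2 largest called rises and falls per pathway list in a comparison, not all of which are printed, and the targeted genes. *nhr-49*, *gbh-1*, *mlcd-1* and B0395.3 were named as list members after their values were seen. The members and lists were chosen with earlier results of these data known. Replicate numbers come from the titles. Deviations from group means of same-numbered libraries correlated at 0.114 to 0.424 between the fed genotypes. Deviations cancel within a group, so fed libraries with different numbers varied in opposite directions on average. Whether the numbers mark a shared experiment was not tested. A block on the numbers changed no call of a member between the fed genotypes. It called 9951 of all genes there, against 8908 without it. On fasting with the H3K27ac(-) label and for the interaction the block called more members and more of all genes, as given below.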

Additional observations from a re-analysis of the deposited data

Results flagged for a closer look

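The fasting change differed between the genotypes for *cpt-3*, *cpt-4* and *cpt-5* by a test of the difference itself. The edgeR interaction was -3.06 for *cpt-3* (3.65 in wild type against 0.59 with the H3K27ac(-) label), -3.25 for *cpt-4* (3.02 against -0.23) and 0.72 for *cpt-5* (-0.99 against -0.27), in log2 units. That of *cpt-5* was called in only 4 of 9 other settings, against 9 of 9 for *cpt-3* and 8 of 8 for *cpt-4*.

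A library stood apart from its group in 2 of 24 combinations of member and group, where chance gives about 1 in 20. In the fed H3K27ac(-)-labelled group replicate 4 had 97.3 CPM of *cpt-2*, against 83.8 to 85.6 CPM in the others, and the gap was 0.866 of the group's range. In fed wild type replicate 2 had 1.402 CPM of *cpt-4*, against 1.04 to 1.08 CPM, with a gap of 0.901 of the range, on 16 to 22 reads per library.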

How the results depend on the processing

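Of the 18 calls among 30 tests of members, 15 were kept in every fit that tested the gene, and the other 3 are *cpt-3* on fasting with the H3K27ac(-) label, *cpt-5* in the interaction and *cpt-6* between the fasted genotypes. On wild-type fasting and between the genotypes, fed or fasted, the number of members called stayed within 1.5 times the main count in every alternative run. For wild-type fasting and the fed genotypes, with 4 members called, that limit takes in all 6. Every member passed in these 2 comparisons with library size alone and with limma-trend on TPM. Of all 15835 genes in it, limma-trend called 7169 higher and 2655 lower on wild-type fasting. Between the fed genotypes it called 6596 and 2630. Only the change of *cpt-2* on wild-type fasting turned its direction past the threshold, to 0.23 with library size alone (edgeR adjusted p = 0.0346) and 0.29 with limma-trend on TPM (adjusted p = 0.0107). For fasting with the H3K27ac(-) label the count of 2 members became 1 with a threshold of 0.01, limma voom, DESeq2 size factors in edgeR, no filter on low counts, or only the groups of the contrast. It became 4 with library size alone, upper-quartile factors, a mean of at least 5 CPM, the replicate block or limma-trend on TPM. In that order these settings called 6118, 6078, 4727, 7406 and 7541 of all genes, against 5594 in the main fit. The filter at 5 CPM left 10099 genes to test. With a library left out the count of members was 1 to 3. It was 1 without fed replicate 1, fed replicate 3 or fasted replicate 4, and 3 without fed replicate 4. There *cpt-3* was called in 6 of 10 other settings and in 12 of 16 fits that each lacked 1 library. The count of 3 members for the interaction became 1 with a mean of at least 5 CPM. That filter removes *cpt-4*, and *cpt-5* did not pass with it (0.65, edgeR adjusted p = 0.0655). The count became 6 with the replicate block, where *cpt-1*, *cpt-2* and *cpt-6* passed too (edgeR adjusted p = 0.0363, 0.0194 and 0.00992). For the interaction the block called 6422 of all 15840 genes, against 4109 in the main fit. The interaction of *cpt-5* was called in 4 of 9 other settings and in 7 of 16 fits that each lacked 1 library, and was 0.55 without fasted H3K27ac(-)-labelled replicate 1 (adjusted p = 0.125). Where no value shows the cause, the cause was not tested. Same-numbered libraries correlated at 0.0750 to 0.342 for wild-type fasting, 0.0110 to 0.227 for fasting with the label and -0.0470 to 0.159 between the fasted genotypes. The main fits take no pairing in any comparison. Against TMM, library size alone moves the median of all genes by 0.34 (log2) for wild-type fasting, 0.29 for the fed genotypes and -0.29 for the interaction. On wild-type fasting it calls 7458 genes higher and 2523 lower, upper-quartile factors 6280 and 3436, and TMM 4808 and 4849. Between the fed genotypes library size alone calls 5903 and 3018, against 3890 and 5018, and between the fasted ones upper-quartile factors call 3503 and 5717, against 4472 and 4642. For fasting with the label DESeq2 size factors call 2213 and 2966, against 3109 and 2485, and for the interaction 1723 and 2165, library size alone 989 and 3547 and upper-quartile factors 1462 and 2347, against 2304 and 1805. Of the ratios to *cpt-2*, only 2 changed side with TPM in place of reads: *cpt-4* on fasting with the label passed (-0.52; exact permutation p = 0.0286) and *cpt-6* on wild-type fasting did not (0.22; exact p = 0.171). Counts of 16 to 22 reads limit *cpt-4* in fed wild type, and leaving out 1 of its libraries kept its calls.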
